A study of Mus musculus with 5 samples.

Results

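The genes described here encode the nuclear part of the oxidative phosphorylation machinery, and they were followed in RNA sequencing libraries of primary microglia from mouse brain. Microglia are the macrophages that reside in brain tissue. The genes were chosen by symbol, as the rows of the count table whose names begin with Nduf, Cox4 to Cox8, Uqcr or Atp5, plus Sdha to Sdhd, without assembly factors (Ndufaf) and pseudogenes and with at least 50 reads summed over the libraries. That gave 75 of the 21983 rows. Complex I held 35 of them, complex II 4, complex III 7, complex IV 13 and complex V 16. Ndufa4 was counted with complex IV, to which its protein belongs despite its name. Atp5s matches the symbol rule, although its product is not a subunit of the ATP synthase.

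The genotype labelled knockout, in 2 libraries, is Cx3cr1CreERT2 Ythdf2fl/fl. Its tamoxifen-inducible Cre is driven from the locus of Cx3cr1, a gene of microglia and other macrophages and monocytes, and Ythdf2 encodes a reader of N6-methyladenosine that promotes the decay of marked mRNAs. The control genotype, in 3 libraries, is Ythdf2fl/fl, so that floxed Ythdf2 alleles are common to both groups. The study asked which processes change when microglia lose Ythdf2. No source used here gives age, tamoxifen schedule or pooling of animals. Nor is it stated that libraries are from different animals, and the p-values below therefore measure the spread between samples, which may be technical.

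The respiratory chain passes electrons from NADH and succinate to oxygen and pumps protons across the inner mitochondrial membrane, and complex V, the ATP synthase, uses the resulting gradient to make ATP. Complex I oxidises NADH, complex II oxidises succinate, complex III passes electrons from ubiquinol to cytochrome c, and complex IV reduces oxygen. Mitochondrial DNA encodes a few central subunits of complexes I, III, IV and V, while complex II and all other subunits are made from nuclear genes. Microglia change their reliance on respiration and glycolysis as they become activated.

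Respiratory genes share promoter elements, and 4 promoters are shown. They belong to genes among the more variable and the steadier ones described below. Cox8a and Uqcr11 varied widely between libraries, though not the most, whereas Sdha and Atp5b hardly varied. These 4 genes were picked after their values were seen. Each window covers 250 bases before to 50 bases after a RefSeq start site on GRCm38.p6, read 5′ to 3′ on the gene's strand. Capitals mark a match, on either strand, to an NRF1 site core (CGCANGCG), an ETS site (CCGGAAG), a YY1 site (AAGATGG) or an ERR half-site (AAGGTCA). They also mark a CCAAT box, a GC box (GGGCGG) and a TATA box (TATAAA). The NRF1 core was shortened from a longer form after matches to that form were seen, and a palindromic match was counted once. The Cox8a window lies at chr19:7217567-7217866 on the minus strand, Uqcr11 at chr10:80406772-80407071 on the minus strand, Sdha at chr13:74350191-74350490 on the minus strand and Atp5b at chr10:128083057-128083356 on the plus strand.
Cox8a: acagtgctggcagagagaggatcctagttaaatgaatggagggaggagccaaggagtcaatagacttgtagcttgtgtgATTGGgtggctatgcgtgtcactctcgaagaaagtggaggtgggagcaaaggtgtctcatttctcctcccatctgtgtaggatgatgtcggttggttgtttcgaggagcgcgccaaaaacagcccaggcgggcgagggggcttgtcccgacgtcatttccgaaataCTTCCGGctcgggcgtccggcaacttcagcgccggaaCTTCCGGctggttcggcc
Uqcr11: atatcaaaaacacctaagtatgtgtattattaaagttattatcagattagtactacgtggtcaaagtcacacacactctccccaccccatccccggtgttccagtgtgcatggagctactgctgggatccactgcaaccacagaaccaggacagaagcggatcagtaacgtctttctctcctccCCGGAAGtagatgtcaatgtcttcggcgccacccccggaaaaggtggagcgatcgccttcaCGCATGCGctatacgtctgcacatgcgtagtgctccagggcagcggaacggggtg
Sdha: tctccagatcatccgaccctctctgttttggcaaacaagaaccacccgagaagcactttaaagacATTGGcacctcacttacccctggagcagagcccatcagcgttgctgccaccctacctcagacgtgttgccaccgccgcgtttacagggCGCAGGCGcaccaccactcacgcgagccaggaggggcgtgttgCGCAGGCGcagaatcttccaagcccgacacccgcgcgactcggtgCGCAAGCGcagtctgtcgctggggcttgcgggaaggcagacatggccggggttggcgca
Atp5b: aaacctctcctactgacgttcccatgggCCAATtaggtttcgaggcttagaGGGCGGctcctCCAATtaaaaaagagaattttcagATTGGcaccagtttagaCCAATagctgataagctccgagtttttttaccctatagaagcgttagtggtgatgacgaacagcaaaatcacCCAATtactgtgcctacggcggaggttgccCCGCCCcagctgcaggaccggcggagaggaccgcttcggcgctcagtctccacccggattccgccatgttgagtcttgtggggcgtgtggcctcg
The Cox8a window held 2 ETS sites and 1 CCAAT box, and the Uqcr11 window held 1 NRF1 core and 1 ETS site. The Sdha window held 3 NRF1 cores and 1 CCAAT box, and the Atp5b window held 5 CCAAT boxes and 2 GC boxes. Of the 75 genes, 63 were matched to 68 such windows. An NRF1 core was found in 39.7% of these windows, against 8.21% of all 32851 windows used, an ETS site in 22.1% against 8.86%, a YY1 site in 16.2% against 6.34% and an ERR half-site in 11.8% against 4.72%. CCAAT boxes (41.2% against 37.4%) and GC boxes (39.7% against 35.7%) had nearer shares, and TATA boxes were in 8.82% against 13.6%. A match describes the letters only, and whether matches go with the range between libraries was not tested.

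Library depth was 15743468 and 19577217 gene counts in labelled knockout 1 and 2, and 13947500 to 15744558 in the controls. Ythdf2 itself went against the labels, at 103.5 and 127 CPM (read counts scaled to the size of the library) in labelled knockout libraries, against 57.0 to 69.2 CPM in the controls, so each library is called by its label throughout, as labelled knockout 1 or 2 and control 1, 2 or 3. Ythdf2 had a log2 fold change of labelled knockout over control of 0.83 (SE 0.207, adjusted p = 0.431 by edgeR's quasi-likelihood test). Both libraries labelled knockout were above every control, as for 9.85% of all genes. A gene-level count can include reads from exons that were not deleted, and the cause of the higher level was not tested. The microglia markers were checked as a list of 12 genes: 11 were tested and Trem2 was listed at 0 reads in all 5 libraries. Their summed level was 4021 and 6733 CPM in labelled knockout libraries, against 7656 to 8034 CPM in the controls. The markers differed, with 3 positive and 8 negative log2 fold changes. Tmem119 had 34.1 and 13.7 CPM in labelled knockout libraries, against 11.1, 7.03 and 5.35 CPM in the controls. Cx3cr1, the locus of the Cre, is in the sum, at 337 and 97.7 CPM in labelled knockout libraries, against 682, 992 and 681 CPM in the controls. The part of the Cre allele in this was not tested. In such bulk samples, fewer cells of a type and less RNA per cell cannot be told apart.

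All 75 genes passed the filter on low counts, and none passed the test for a difference between the genotypes. The edgeR quasi-likelihood test gave 0 calls at an adjusted p under 0.05 among the 75, against 0 of all 12543 genes tested (0%). At an unadjusted p under 0.05 there were also 0 of 75, where 6.68% of all genes passed. DESeq2 called 0 of the 75, against 1.95% of all genes, with 0 and 8.06% at an unadjusted p under 0.05, and limma-voom called 0 of the 75, against 0% of all genes. The log2 fold change of labelled knockout over control had a median of -0.02 over the 75 genes, with a range of -1.21 to 0.50, against a median of 0.01 over all genes tested. It was positive for 33 of 75, against 51.1% of all genes. By complex the median was -0.02 in complex I, 0.02 in complex II, -0.04 in complex III, -0.01 in complex IV and -0.01 in complex V.

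These medians near 0 stood on 2 libraries whose summed levels of the 75 genes lay on opposite sides of the controls. In 31 of the 75 genes, 1 library labelled knockout was below every control and the other above every control. That share was not taken over all genes tested, so it cannot be read as particular to these genes. In 0 of 75 genes were both on the same side of every control, against 20.3% of all genes tested. The median log2 fold change of the 75 genes was 0.31 without labelled knockout 1, -0.67 without labelled knockout 2 and -0.22 without control 2.

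The libraries split in another way. Summed over the 75 genes, the level was 3285 CPM in labelled knockout 1 and 5659 CPM in labelled knockout 2, against 4799, 3607 and 5024 CPM in controls 1 to 3. Labelled knockout 1 and control 2 were therefore low, and the other three were high. These low libraries were the lowest 2 of the 5 in 61 of 75 genes, against 22.5% of all genes. Labelled knockout 1 was the lowest of all in 53 genes (33.1% of all genes) and labelled knockout 2 the highest in 46 (21.1% of all genes). A first principal component over the 5 libraries held 86.7% of the variance of the 75 genes, against 53.0% for all genes tested. Total counts were 15743468 in labelled knockout 1 and 15744558 in control 2, and 15565624 in control 1, which was high; the part of depth was not tested.

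**Figure D1:**
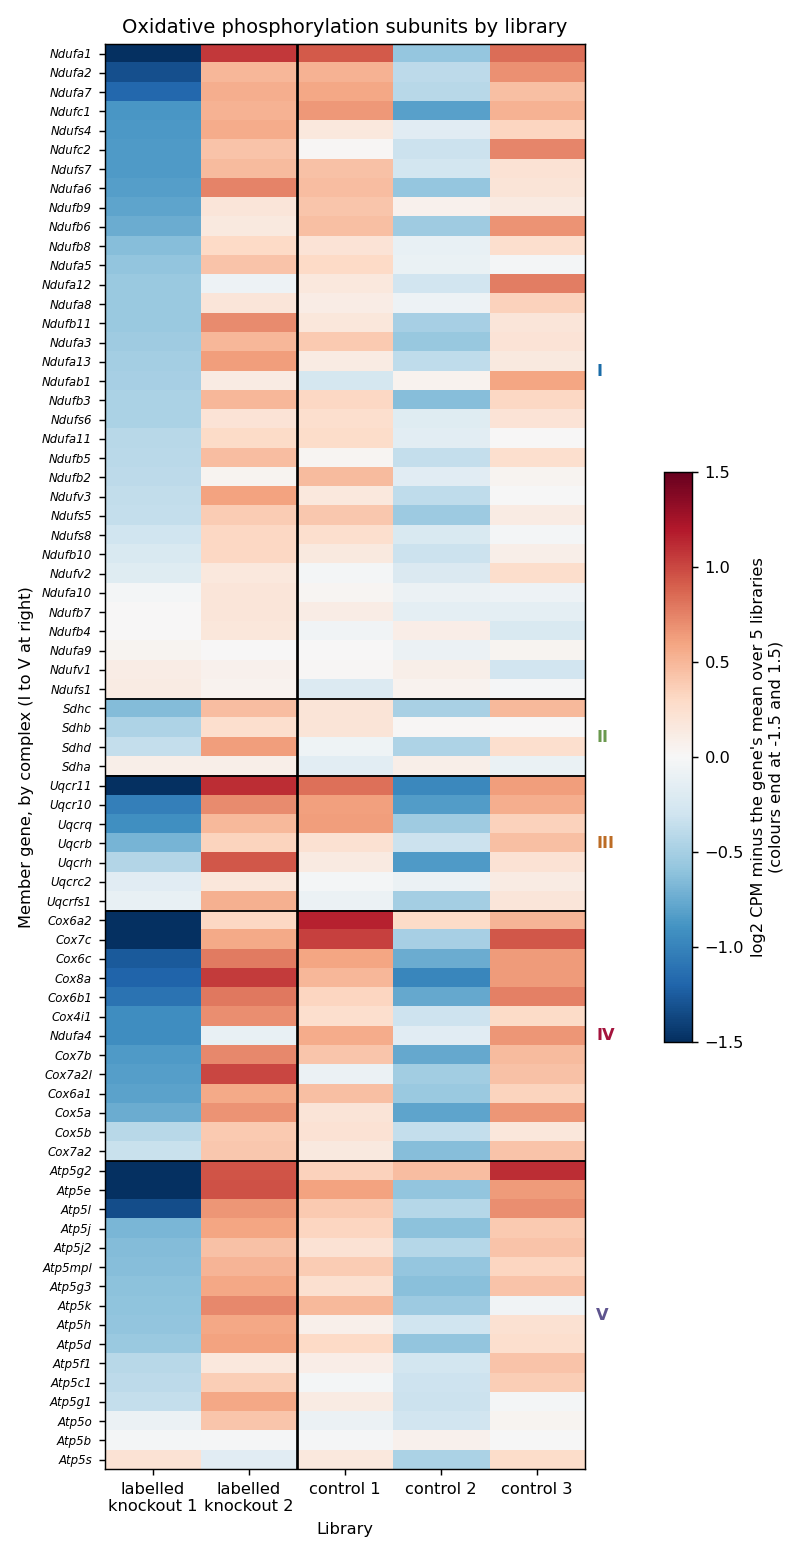
Deviation of 74 of the 75 genes from its own mean over the libraries (log2 CPM, colour scale), with genes in rows by complex and libraries in columns, labelled knockout first. The columns of labelled knockout 1 and control 2 are mostly below the mean (68 and 64 of all 75 genes), and that of labelled knockout 2 mostly above it (71 of all 75).

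The size of the swing differed by complex. A score was taken for each complex and library as the mean, over its genes, of the log2 CPM minus the gene's own mean. For complex IV it was -1.05 in labelled knockout 1 and 0.60 in labelled knockout 2, against 0.44, -0.52 and 0.53 in controls 1 to 3. Complex III scored -0.71 and 0.61 in labelled knockout 1 and 2, against 0.33, -0.59 and 0.36 in controls 1 to 3. The smallest swing was in complex II, with -0.34 and 0.36 in labelled knockout 1 and 2, against 0.04, -0.21 and 0.16 in controls 1 to 3. Complexes I and V lay between these, and the groups overlapped in each complex. The median transcript length was 2065.5 nt in complex II, 971 nt in I, 823.5 nt in V, 680 nt in IV and 547 nt in III. The part of length in the difference between complexes was not tested.

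**Figure D2:**
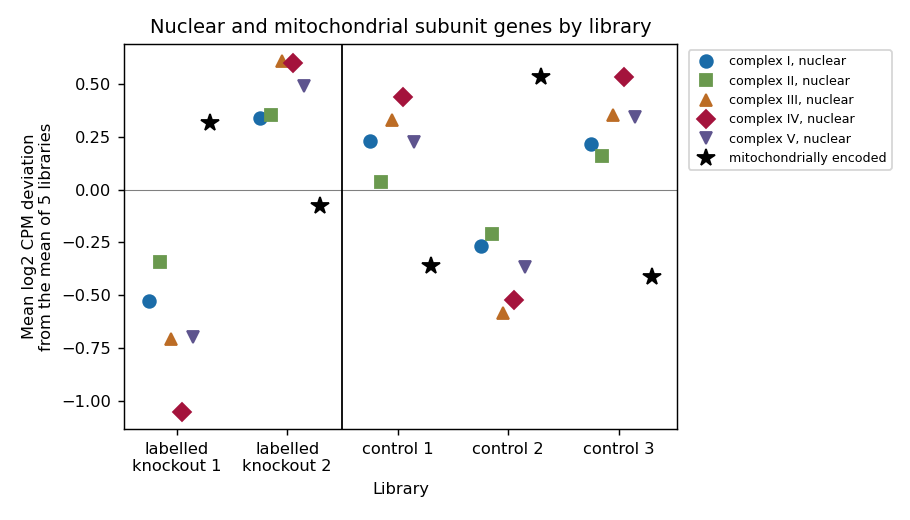
Score of each complex (mean log2 deviation from the gene means, vertical axis) in the 5 libraries, labelled knockout first, with 1 point per library (coloured symbols), beside the mitochondrially encoded subunits (stars). Complex IV spans the widest range of the nuclear complexes, -1.05 to 0.60, and the mitochondrially encoded subunits have their highest score in control 2, at 0.53.

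**Figure D3:**
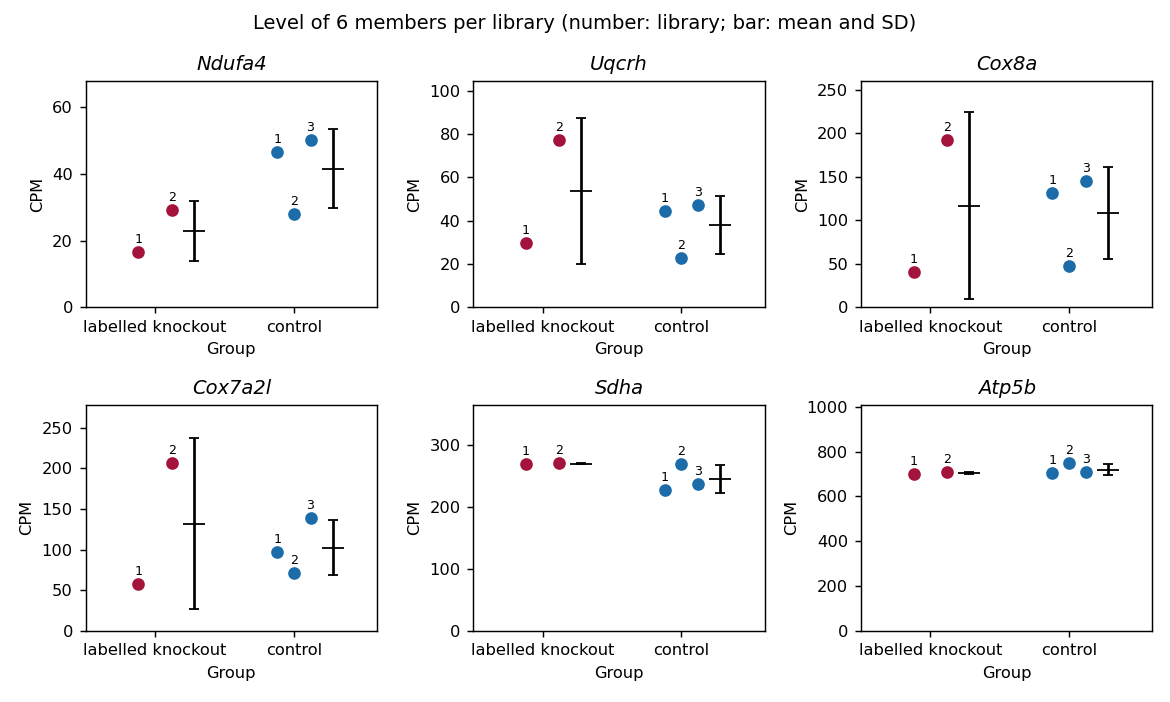
Level of Ndufa4, Uqcrh, Cox8a, Cox7a2l, Sdha and Atp5b (CPM, vertical axes from 0) in each library, labelled knockout first, with numbered points for libraries and bars for mean and SD. Cox8a has 40.4 and 192 CPM in labelled knockout libraries, on either side of the controls, and Atp5b stays between 701 and 748 CPM.

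In complex I, the scores of the catalytic core spanned less than those of the accessory subunits, which surround and stabilise the core. The 6 core genes scored -0.20 and 0.19 in labelled knockout 1 and 2, against 0.09, -0.09 and 0.01 in controls 1 to 3. The 29 accessory genes scored -0.59 and 0.37 there, against 0.26, -0.30 and 0.26 in controls 1 to 3. Single genes did not follow this division throughout: the core gene Ndufs7 ran from 30.4 to 76.5 CPM over the libraries, a 2.52-fold range, while the accessory genes Ndufa9, Ndufa10 and Ndufb7 had ranges of 1.10-fold, 1.20-fold and 1.27-fold. The median transcript lengths were 1642 nt for the core and 875 nt for the accessory genes. Ndufs1, an iron-sulphur protein of the NADH-oxidising arm, had 85.5 and 81.3 CPM in labelled knockout libraries, against 68.1, 81.5 and 78.0 CPM in the controls, giving a log2 fold change of 0.14 (SE 0.191). The groups overlapped, with control 2 between labelled knockout 1 and 2.

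Ndufa1, an accessory subunit of the membrane arm, had the widest range in complex I. It stood at 2.56 and 26.1 CPM in labelled knockout libraries, against 23.6, 8.30 and 22.3 CPM in the controls. The 10.2-fold range lay inside the groups: labelled knockout 1 and control 2 were low, and the lowest of the others had 22.3 CPM. Ndufa2, another accessory subunit, was at 18.0 and 63.5 CPM in labelled knockout libraries, against 64.5, 34.2 and 72.4 CPM in the controls, giving a log2 fold change of -0.48 (SE 0.589). Ndufa7 and Ndufa8, also accessory, gave log2 fold changes of -0.34 (SE 0.563) and -0.28 (SE 0.294). Among accessory genes with positive values, Ndufv3 had 0.26 (SE 0.347) and Ndufb7 had 0.16 (SE 0.208), and no complex I gene had an edgeR adjusted p below 0.909.

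Complex II is the succinate dehydrogenase of the citric acid cycle, and its 4 genes did not move as a block. Sdha, the flavoprotein that oxidises succinate, had 269 and 269.8 CPM in labelled knockout libraries, against 226, 269 and 237 CPM in the controls. Control 2 overlapped both libraries labelled knockout, and the log2 fold change was 0.14 (SE 0.202). Sdhb, the iron-sulphur subunit, had 80.9 and 132 CPM in labelled knockout libraries, against 127, 113 and 111 CPM in the controls, and lay on both sides of them. The membrane anchors had wider ranges. Sdhc had 55.2 and 119 CPM in labelled knockout libraries, against 98.9, 61.6 and 121 CPM in the controls. Sdhd had 54.3 and 108 CPM there, against 66.4, 50.5 and 82.6 CPM in the controls, giving a log2 fold change of 0.28 (SE 0.363). In both anchors labelled knockout 1 and control 2 were the lowest libraries.

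In complex III the core protein gene was steady and the small subunits were not. Uqcrc2, the core protein, had 64.4 and 81.5 CPM in labelled knockout libraries, against 71.1, 68.6 and 78.9 CPM in the controls, and the groups overlapped. Uqcrfs1, the Rieske iron-sulphur protein, had 72.6 and 114 CPM in labelled knockout libraries, against 74.3, 55.1 and 89.0 CPM in the controls, giving a log2 fold change of 0.36 (SE 0.304). Uqcr11, a small subunit, had 5.71 and 37.6 CPM in labelled knockout libraries, against 30.9, 8.87 and 26.9 CPM in the controls. Its 6.58-fold range again had labelled knockout 1 and control 2 at the bottom. Uqcrh, the hinge protein that binds cytochrome c1, had the largest positive log2 fold change of the 75 genes, 0.50 (SE 0.497). Its levels were 29.8 and 77.4 CPM in labelled knockout libraries, against 44.5, 22.5 and 47.1 CPM in the controls. The value was 0.998 without labelled knockout 1 and -0.35 without labelled knockout 2. Uqcr10, another small subunit, gave a log2 fold change of -0.16 (SE 0.635), and Uqcrb, the ubiquinone-binding protein, -0.25 (SE 0.411).

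Complex IV had the widest median range between the highest and the lowest library, 3.10-fold, against 2.02-fold over all genes tested. All genes tested have longer transcripts, with a median of 3234 nt against 680 nt in complex IV. Cox4i1, the common form of the subunit that binds adenine nucleotides, had 109 and 338 CPM in labelled knockout libraries, against 248, 168 and 254.7 CPM in the controls. Cox8a, a small membrane subunit, had 40.4 and 192 CPM in labelled knockout libraries, against 131, 47.0 and 145 CPM in the controls. For both genes the libraries labelled knockout took the lowest and the highest place, and the controls lay between. The log2 fold change of Cox8a was 0.11 (SE 0.741) with all libraries, 0.81 without labelled knockout 1 and -1.42 without labelled knockout 2. Cox7a2l, a factor that joins complexes III and IV into supercomplexes, had 57.8 and 206 CPM in labelled knockout libraries, against 96.9, 71.5 and 139 CPM in the controls. It took the same order, and its log2 fold change was 0.36 (SE 0.560).

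Ndufa4 had the smallest p of the 75 genes. It stood at 16.5 and 29.2 CPM in labelled knockout libraries, against 46.5, 28 and 50.3 CPM in the controls. Control 2 lay between the libraries labelled knockout, so the groups overlapped through 1 library. The means were 22.9 ± 8.98 CPM (SD, n = 2) in labelled knockout libraries and 41.6 ± 11.9 CPM (SD, n = 3) in the controls. The log2 fold change was -0.86 (SE 0.382), with an adjusted p of 0.793 by edgeR's quasi-likelihood test. It was -0.54 without labelled knockout 1 and -1.33 without labelled knockout 2. Unlike most of the 75 genes, Ndufa4 was below its own mean in labelled knockout 2, as were Atp5b, Atp5s and Ndufa12. Its annotated span (ENSMUSG00000029632.7, GRCm38) is 11900292 to 11907497 of chromosome 6, on the minus strand.

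Several complex IV subunits come in a common form and forms restricted to other tissues. Cox6a1 had 80.3 and 208 CPM in labelled knockout libraries, against 192, 95.4 and 177 CPM in the controls. Cox6a2, its heart and muscle form, had 0.357 and 2.70 CPM there, against 4.97, 2.66 and 3.12 CPM in the controls. At -1.21 (SE 0.803) its log2 fold change was the most negative of the 75 genes. That value was -0.44 without labelled knockout 1 and -3.30 without labelled knockout 2, and 10.3% of the exon bases of Cox6a2 are shared with a gene on the opposite strand. Cox6b1 had 24.9 and 93.1 CPM in labelled knockout libraries, against 67.4, 31.6 and 90.6 CPM in the controls. Cox7a2 had 33.6 and 56.5 CPM there, against 47.2, 27.2 and 57.1 CPM in the controls. Both groups overlapped for each of these isoforms.

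Beneath the minimum of 50 reads were 10 rows. Of the alternative forms, Cox7a1 (heart and muscle) had 38 reads in all, Cox6b2 (testis) 20, Cox4i2 (lung) 19, Ndufa4l2 (induced by hypoxia) 2 and Cox8b (muscle) 1, while Cox7b2 and Cox8c were listed at 0. Just inside was Atp5l, with 59 reads, and the most counted gene was Atp5b, with 57355. Ndufs3, a core subunit of complex I, was listed at 0, Uqcrc1, a core protein of complex III, had 1 read and Atp5a1, the alpha subunit of the ATP synthase, had 2. Respiring cells use these core subunits, so such values are given as listed and not as levels; the part of the annotation or the counting in them was not tested.

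In complex V the genes ranged from the steadiest to the most variable of the 75. Atp5b, the catalytic beta subunit, had 701 and 707 CPM in labelled knockout libraries, against 702, 748 and 708 CPM in the controls. This was the narrowest range of the 75 genes, 1.07-fold, and the log2 fold change was -0.03 (SE 0.222). Atp5e, the small epsilon subunit of the same head, had 15.8 and 94.2 CPM in labelled knockout libraries, against 74.0, 32.1 and 75.7 CPM in the controls, a 5.96-fold range. Atp5o, which joins the head to the peripheral stalk, had 67.2 and 94.8 CPM in labelled knockout libraries, against 67.0, 58.5 and 73.1 CPM in the controls, giving a log2 fold change of 0.29 (SE 0.235). The groups overlapped for each of these genes. Atp5d, another head subunit, gave a log2 fold change of 0.09 (SE 0.433), and Atp5f1, of the stalk, -0.21 (SE 0.301).

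The proton-carrying c subunit of the ring is made from 3 genes whose proteins end up identical after import. Atp5g3 had 54.1 and 123 CPM in labelled knockout libraries, against 97.5, 53.7 and 111 CPM in the controls. Atp5g1 had 12.3 and 23.6 CPM there, against 17.2, 12.6 and 15.4 CPM in the controls. Atp5g2 had 0.0595 and 2.43 CPM in labelled knockout libraries, against 1.57, 1.71 and 2.75 CPM in the controls. The resulting log2 fold change of -0.65 (SE 1.011) was 0.26 without labelled knockout 1. For none of the 3 did the groups separate. Atp5s had 4.28 and 3.24 CPM in labelled knockout libraries, against 4.09, 2.60 and 4.46 CPM in the controls, and the groups overlapped.

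**Figure D4:**
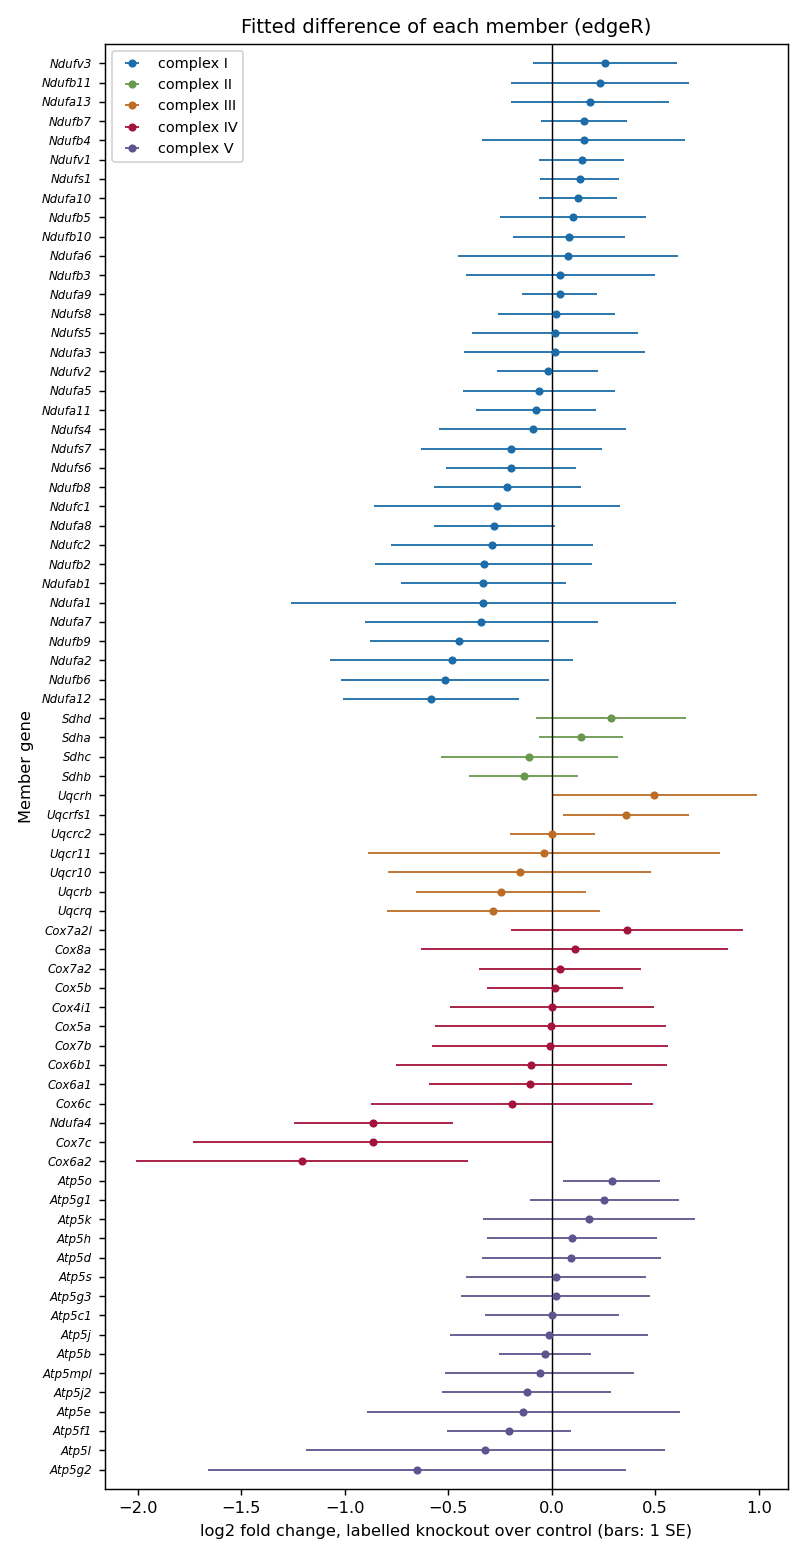
Log2 fold change of labelled knockout over control (horizontal axis) from edgeR for 74 of the 75 genes, in rows by complex and colour, with bars of 1 SE. Uqcrh is the highest, at 0.50, and Cox6a2 the lowest, at -1.21, with a bar of 0.803 to each side.

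Levels can be set beside each other only per length, here as mean CPM per kb of merged exons. By that measure Cox6a1 (214 CPM per kb), Cox8a (179.9), Atp5b (168) and Cox4i1 (144) stood at the top of the 75 genes as means of all libraries. The highest gene was Atp5b in labelled knockout 1 and control 2, Cox8a in labelled knockout 2 and Cox6a1 in controls 1 and 3. The median was 19.1 CPM per kb in complex I, 54.5 in complex II, 35.8 in complex III, 39.8 in complex IV and 19.1 in complex V. Within complex I Ndufa2 had 88.3 CPM per kb, and in complex II Sdha (61.6) and Sdhd (58.7) were the highest. In complex III the highest were Uqcr10 (63.3) and Uqcrfs1 (59.4), and in complex V Atp5b and Atp5d (62.4). Divided by the longest transcript in its place, a choice made after the data were seen, the order turned, with Atp5b (372 CPM per kb) and Cox4i1 (292) above Cox6a1 (264) and Cox8a (202). In complex II Sdhb (98.8) was then above Sdha (87.7) and Sdhd (58.7), and in complex V Atp5e (139) and Atp5g3 (122) were above Atp5d (85.3).

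The steadiest and the most variable genes differed in transcript length, with exceptions. The 8 genes with at most 1.3-fold between their highest and lowest library included Atp5b, Ndufa9, Sdha, Ndufa10, Ndufs1, Ndufb7 and Uqcrc2, and their median transcript length was 1906 nt. The 18 genes with 3-fold or more had a median of 591 nt and included Cox7c, Ndufa1, Uqcr11, Atp5e, Cox8a and Cox6c. Ndufb7, at 623 nt, was short and steady, and Cox7a2l, at 1129 nt, was longer and variable. Among all 75, the correlation across genes between log2 length and deviation was 0.50 and -0.49 in labelled knockout 1 and 2, against -0.54, 0.44 and -0.40 in controls 1 to 3. Over 12510 genes with a length, it was 0.42 and -0.31 in labelled knockout 1 and 2, against -0.23, 0.27 and -0.27 in controls 1 to 3. Genes of 1 library share its preparation and are not independent replicates, and these values are descriptions.

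The 75 genes have short transcripts, with a median of 865 nt against 3234 nt for all genes tested. These lengths are of the longest annotated coding transcript, so that Atp5g1, at 4715 nt, counts as long. Which form of a transcript was expressed was not tested. Under 750 nt, the 30 oxidative phosphorylation genes had median deviations of -0.81 and 0.57 in labelled knockout 1 and 2, against 0.43, -0.55 and 0.48 in controls 1 to 3. The 207 other genes of that length had -0.83 and 0.51 in labelled knockout 1 and 2, against 0.38, -0.46 and 0.33 in controls 1 to 3. In both sets labelled knockout 1 and control 2 were below 0 and the other libraries above it. From 750 to under 1500 nt, the 26 oxidative phosphorylation genes had -0.53 and 0.47 in labelled knockout 1 and 2, against 0.21, -0.33 and 0.24 in controls 1 to 3. The 1338 other genes of that length had -0.47 and 0.26 in labelled knockout 1 and 2, against 0.23, -0.20 and 0.24 in controls 1 to 3. The signs were those of the shorter genes, with smaller sizes. From 1500 nt upwards, the 19 oxidative phosphorylation genes had -0.35 and 0.16 in labelled knockout 1 and 2, against 0.09, -0.17 and 0.12 in controls 1 to 3. There the 10890 other genes had 0.05 and -0.02 in labelled knockout 1 and 2, against 0.01, 0.04 and -0.01 in controls 1 to 3, but they were longer, with a median of 3570 nt against 1896 nt. The difference between these groups of genes was not tested.

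**Figure D5:**
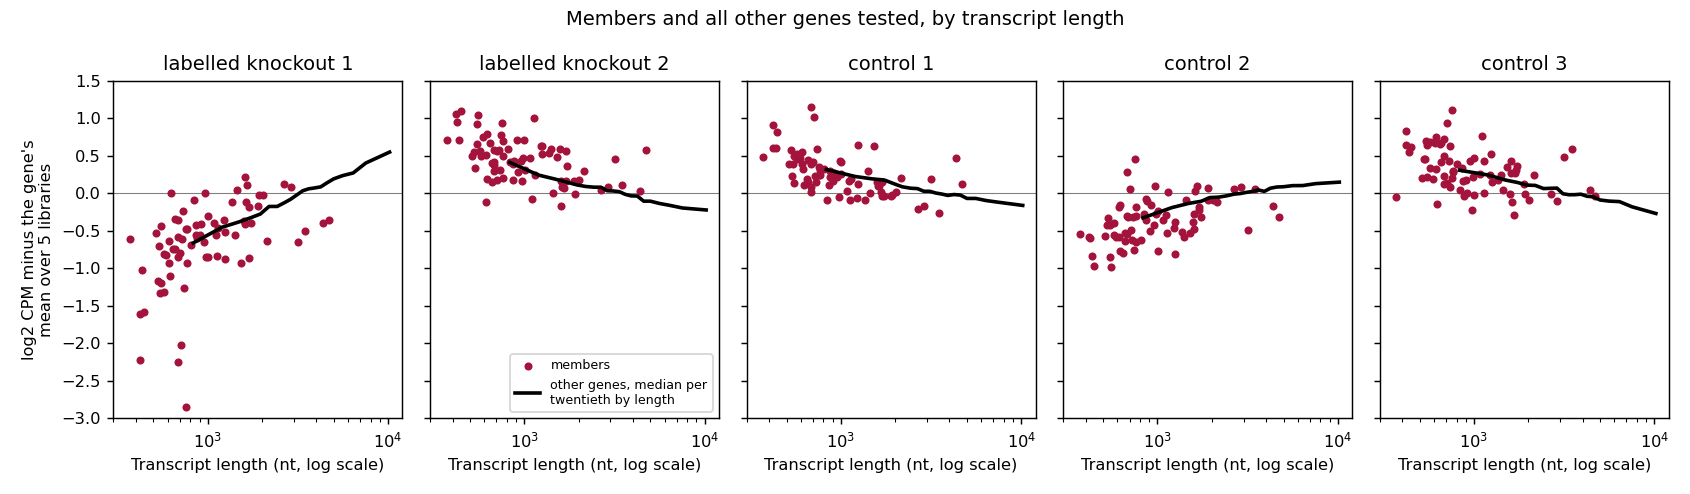
Deviation from the gene mean (log2, vertical axis) against transcript length (nt, log axis) in each library, labelled knockout first, with the 75 genes as points and the median of the other genes tested, taken per twentieth by length, as a line. The line climbs with length in labelled knockout 1 and control 2 and descends in the other libraries.

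When each library was corrected for its trend on length over all genes, the score of the 75 genes was -0.13 and 0.09 in labelled knockout 1 and 2, against 0.01, -0.04 and 0.07 in controls 1 to 3. Before it, the score was -0.66 and 0.45 in labelled knockout 1 and 2, against 0.27, -0.36 and 0.31 in controls 1 to 3. The SD of the score over the 5 libraries was 0.0923 after the correction and 0.482 before. The squared deviations of the 75 genes summed to 47.3 after it and 118 before, and a first component held 69.2% of their variance after it and 86.7% before. After it 0 of 75 genes were called, against 0 of all 12510 genes, and the groups did not overlap in 14 of 75, against 22.1% of all genes. In the corrected fit Uqcrh gave a log2 fold change of 0.64 (SE 0.193, edgeR adjusted p = 0.476) and Ndufa4 of -0.64 (SE 0.231, edgeR adjusted p = 0.597), the only pair of the 75 at an unadjusted p under 0.05, which 7.51% of all genes reached.

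Other properties set the 75 genes apart less. Their median GC content was 50.3%, against 50.1% for all genes with a length, and the sequence GGACT, a form of the N6-methyladenosine consensus, occurred 0.995 times per kb in their median transcript, against 1.05. At least 20% of 50-base stretches were shared with another gene for 11 of 75 (14.7%), against 6.99% of all genes. These were Ndufa12, Ndufb4, Ndufb9, Ndufs5, Uqcrb, Cox5b, Cox7c, Atp5f1, Atp5h, Atp5l and Atp5o, and their levels are uncertain because reads can be lost to or gained from near-identical copies. An exon base of another gene overlapped 27 of the 75 (36%), against 36.8% of all genes. The exons of Atp5j overlap those of Gabpa, an ETS factor of respiratory promoters, on the opposite strand over 12.7% of their bases. No source used here says whether reads were counted by strand.

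The mitochondrially encoded subunits, partners of these proteins in complexes I, III, IV and V, did not show the same order of libraries. Their levels summed to 20602 and 16909 CPM in labelled knockout 1 and 2, against 14307, 19476 and 11981 CPM in controls 1 to 3. Labelled knockout 1 and control 2, low for the nuclear genes, were the highest libraries here, and the part of this in the results for the nuclear genes was not tested. Of 12 tested, 0 were called by edgeR, and 0 had an unadjusted p under 0.05, against 6.68% of all genes. Their log2 fold changes were positive in 9 and negative in 3, and the median was 0.18. The gene mt-Co1, the oxygen-reducing core of complex IV, had 9517 and 10736 CPM in labelled knockout libraries, against 7445, 9003 and 7631 CPM in the controls, giving a log2 fold change of 0.34 (SE 0.348). Both libraries were above every control for mt-Co1, as for 9.85% of all genes.

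Other genes of the pathway were taken as 10 lists, mitochondrially encoded subunits included. Of their 112 genes tested, 0 were called by edgeR and 2 had an unadjusted p under 0.05, which 6.68% of all genes reached. Of the log2 fold changes, 58 were positive and 54 negative. Assembly factors of complex I had a median of -0.18 (16 tested), those of complexes II and III of 0.06 (10 tested), those of complex IV of 0.02 (19 tested) and those of the ATP synthase of -0.02 (5 tested). Cox17, the copper chaperone that supplies complex IV, had 0.892 and 2.11 CPM in labelled knockout libraries, against 7.17, 5.32 and 3.27 CPM in the controls. It was below every control in both, as were 10.4% of all genes, and the log2 fold change was -1.80 (SE 0.597, edgeR adjusted p = 0.623). Vdac3, a channel of the outer membrane, had 29.9 and 22.8 CPM in labelled knockout libraries, against 37.5, 39.2 and 41.8 CPM in the controls, giving a log2 fold change of -0.58 (SE 0.226, edgeR adjusted p = 0.707). Cox17 and Vdac3 were the pair with an unadjusted p under 0.05 and were picked for it.

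Of the remaining lists, 17 citric acid cycle enzymes had a median log2 fold change of 0.13, with 12 positive and 5 negative. Ogdh, a subunit of the 2-oxoglutarate dehydrogenase, had 335 and 276 CPM in labelled knockout libraries, against 225, 271 and 211 CPM in the controls, giving a log2 fold change of 0.38 (SE 0.226). Regulators of respiratory genes had a median of -0.00 (16 tested), with Yy1 at 141 and 149.5 CPM in labelled knockout libraries, against 122, 153 and 132 CPM in the controls. Carriers of adenine nucleotides and phosphate had a median of -0.06 (6 tested), cristae proteins of 0.01 (7 tested), and a list of Cyc1 (cytochrome c1 of complex III), Cycs (cytochrome c), the ATP synthase subunit Usmg5 and the ATP synthase inhibitor Atpif1 of -0.38 (4 tested).

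Markers of other cells were also uneven. The 7 markers of border macrophages, the resident macrophages of the brain's surfaces, summed to 414 and 1562 CPM in labelled knockout 1 and 2. The sums were 423, 316 and 986 CPM in controls 1 to 3, in nearly the order of the oxidative phosphorylation genes. Of the 7, 6 were tested and Cd209f was not. Markers of cycling cells (8 of 8 tested) summed to 1384 and 284 CPM in labelled knockout 1 and 2, against 88.4, 118 and 315 CPM in controls 1 to 3. Their part in the results above was not tested.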

How the data were processed

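Trizol was used for RNA extraction and a NEBNext Ultra kit for the libraries, per the labels' protocols. The authors deposited a table of whole-number counts of reads per gene symbol. Per the submitters' processing notes, FastQC, STAR and HTSeq were used with the build mm10, while no source used here states their versions, the annotation or the strand setting. Control 3 was numbered from its library name, since its title also holds another number.

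The counts were tested with the quasi-likelihood F test of edgeR 4.0.16 under R 4.3.3, as a two-sided test with filterByExpr, TMM factors and robust estimation. Benjamini-Hochberg adjustment ran over all 12543 genes tested, with a threshold of 0.05. The biological coefficient of variation was 0.408 and 3 residual degrees of freedom were left. CPM used TMM-scaled library sizes, and log2 CPM a prior count of 2. Every pair of libraries differed by more than counting noise (chi-square per degree of freedom between 53.4 and 273). Lengths, overlaps and 50-base sharing came from GENCODE M21 on GRCm38 (12510 of the genes tested matched by symbol), and promoters from RefSeq. Transcript length was that of the longest protein-coding transcript of a gene, or of its longest transcript where none is protein-coding. The length correction took each library's loess trend (span 0.3) as an offset. The steps were tested on simulated data.

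The genes and the 20 pathway and marker lists were chosen with earlier results of these data known. Named by rule were calls, the 8 genes with the smallest p in each direction with a mean of at least 10 CPM, the 2 highest per length in each complex, isoform groups, complex II, Atp5s and the extremes of total reads. Of each list the 2 genes with the highest mean were open to naming. Ndufa1, Ndufa9, Ndufa10, Ndufa12, Ndufs7, Uqcrc2, Uqcr11, Cox6c, Cox7c, Atp5e and Atp5j were named after their values were seen. Ndufb2, Ndufb4, Ndufb9, Ndufs5, Cox5b and Atp5h were also outside the rule and were named only for shared sequence or few reads. The microglia markers Tmem119 and Cx3cr1 were named outside the rule for lists. 1 gene that met the rule is not reported here by name. Alternatives were other scalings, filters, DESeq2 1.42.0, limma-voom 3.58.1, the legacy quasi-likelihood method, a replicate block, the length correction, abundant genes left out and each library left out.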

Additional observations from a re-analysis of the deposited data

How the results depend on the processing

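Under all alternatives run, 0 of the 75 genes were called by an adjusted p under 0.05. Of all genes 0 were called too, except 244 by DESeq2 and 4 with a replicate block. A positive log2 fold change was found for 33 of the 75 genes as first fitted, 44 with the length correction and 26 with limma-voom. With every library kept, fold changes of the genes named by rule changed sign in 10 cases, and medians of complexes and lists, which have no test, in 27. The largest of these medians was -0.17 for assembly factors of complexes II and III with limma-voom, against 0.06. With the length correction the median was 0.07 for the 75 genes, 0.08 for complex I, 0.03 for complex IV and 0.11 for complex V. In the same fit the log2 fold change was 0.061 for Atp5b, 0.021 for Cox4i1 and 0.028 for Cox6a1. With limma-voom it was -0.032 for Atp5g3 and -0.13 for Cox8a. For Cox4i1 it was 0.0051 with a filter of 1 CPM in 3 libraries, 0.0126 in DESeq2 and 0.0127 with the size factors of DESeq2 in edgeR. As first fitted, 0 of 75 genes had groups that did not overlap, against 20.3% of all genes. The count was 1 with the filter of 1 CPM in 3 libraries (19.7% of all genes) and 1 with upper quartile factors (20.7%). It was 4 with library totals (20.7%) and 14 with the length correction (22.1%). The cause was not tested.

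The groups share the replicate numbers 1 and 2, and the library names do not say whether same-numbered libraries were handled together. Over all genes the deviations of same-numbered libraries from their group means correlated at 0.15 for number 1 and -0.56 for number 2. With 2 libraries labelled knockout, the deviations of these mirror each other, so the correlations cannot decide whether libraries were paired. With a replicate block, edgeR called 4 of all genes and 0 of the 75. The median was then 0.03 for the 75 and -0.08 for mitochondrially encoded subunits. Among genes named by rule, the log2 fold changes of Cox6b1 (0.062) and Sdhc (0.054) changed sign against the first fit.

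Single libraries moved the results more. Leaving out each library in turn, the median of the 75 genes ran from -0.67 to 0.31, that of complex I from -0.58 to 0.21, of complex II from -0.41 to 0.23, of complex III from -0.86 to 0.44, of complex IV from -1.04 to 0.47 and of complex V from -0.63 to 0.43. The lower end came without labelled knockout 2 and the upper without labelled knockout 1. The count without overlap ran from 1 without control 3, against 32.3% of all genes, to 56 without labelled knockout 2, against 71.6%. Of the other lists, the median of mitochondrially encoded subunits ran from -0.15 to 0.43. Among single genes that changed sign in this way, the log2 fold change ran for Atp5d from -0.60 to 0.53, Atp5f1 from -0.52 to 0.025, Atp5g1 from -0.29 to 0.62, Atp5g2 from -4.89 to 0.26 and Atp5g3 from -0.69 to 0.47. It ran for Atp5l from -2.12 to 0.40, Atp5s from -0.22 to 0.21, Cox4i1 from -1.04 to 0.57, Cox6a1 from -0.95 to 0.40 and Cox6b1 from -1.34 to 0.53. It ran for Cox7a2 from -0.38 to 0.34, Cox7a2l from -0.83 to 0.98, Cox8a from -1.42 to 0.81, Ndufa2 from -1.67 to 0.13 and Ndufa7 from -1.45 to 0.25. It ran for Ndufa8 from -0.69 to 0.014, Ndufb8 from -0.77 to 0.15, Ndufs6 from -0.58 to 0.076 and Ndufv3 from -0.31 to 0.63. It ran for Sdhb from -0.53 to 0.15, Sdhc from -0.77 to 0.31, Sdhd from -0.29 to 0.67, Uqcr10 from -1.27 to 0.44 and Uqcrb from -0.86 to 0.16. It ran for Uqcrfs1 from -0.0033 to 0.62 and Uqcrh from -0.35 to 0.998.

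Without both labelled knockout 1 and control 2, chosen after seeing the data, the median was 0.16 and 56 of 75 genes did not overlap, against 63.1% of all genes. In that fit the genes listed next changed sign against the first fit, and they were picked for it. Their log2 fold change was 0.16 for Atp5g2, 0.10 for Atp5l, -0.42 for Atp5s, 0.40 for Cox4i1 and 0.14 for Cox6a1. It was 0.21 for Cox6b1, 0.0013 for Ndufa7, 0.05 for Ndufb8, 0.12 for Sdhb, 0.08 for Sdhc and 0.10 for Uqcr10. Among genes that kept their sign, Cox7a2l had 0.78 and Ndufa4 -0.75. Atp5l, Ndufb4, Ndufb2, Atp5g2 and Cox6a2 rest on 59 to 219 reads each.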

Other observations

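Genes of the ribosome, which also have short transcripts, followed a like order of libraries. The 94 cytosolic ribosomal protein genes tested scored -0.70 and 0.39 in labelled knockout libraries 1 and 2, against 0.25, -0.28 and 0.34 in controls 1 to 3, with a median transcript length of 942 nt and a median log2 fold change of -0.11. The 75 mitochondrial ribosomal protein genes, whose products translate the mitochondrially encoded subunits, scored -0.42 and 0.22 there, against 0.18, -0.24 and 0.25 in controls 1 to 3, with a median length of 1339 nt and a median log2 fold change of -0.08. By edgeR 0 genes of either group were called, with 2 and 1 at an unadjusted p under 0.05, which 6.68% of all genes reached.

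Summed marker levels of other cell types were as follows. Choroid plexus markers had 169 and 225 CPM in labelled knockout libraries 1 and 2, against 30.7, 11.9 and 29.6 CPM in controls 1 to 3. Monocyte markers had 134 and 215 CPM in labelled knockout libraries, against 36.3, 55.2 and 90.1 CPM in the controls. Oligodendrocyte markers had 13008 and 4757 CPM in labelled knockout libraries, against 10913, 9879 and 1328 CPM in the controls. Both choroid plexus and monocyte sums lay above every control, and oligodendrocyte sums overlapped. Astrocyte markers summed to 27.8 and 30.8 CPM in labelled knockout libraries, against a control range of 24.2 to 50 CPM, and neuron markers to 166 and 41.8 CPM, against a control range of 27.2 to 65.3 CPM. Endothelial markers summed to 137 and 96.8 CPM in labelled knockout libraries, against a control range of 51.2 to 134 CPM, and mural and fibroblast markers to 31.4 and 12.5 CPM, against a control range of 39.1 to 120.4 CPM.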
